A study of Mus musculus with 12 samples.

Results

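Duodenal RNA of Akp3 knockout mice was compared with that of wild-type mice that, like them, had been given vehicle alone. The comparison takes the arrays labelled as control, with no peptide, which are 6 of the 12 arrays of the study: 3 from wild-type mice and 3 from IAP knockout (Akp3-/-) mice. The mice were male and 7 weeks old, were dosed by mouth daily for 14 days with carboxymethylcellulose sodium salt in solution (5 g/L), and were fasted for 8 h before the duodenum was taken. The other 6 arrays come from mice of the same genotypes given the pentapeptide IIAEK in that solution at 600 mg per kg body weight daily, and serve here as a second, separate set of mice for the genotype contrast. The strain, how the allele was made and whether the wild-type mice were littermates are not given in the sources used here, and the labels say nothing of cage or litter. With 3 mice a group, the number of arrays limits the precision.

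Alkaline phosphatases remove phosphate groups from many substrates at neutral to alkaline pH. In the small intestine they sit on the brush border of enterocytes and in the lumen, where they dephosphorylate bacterial endotoxin and extracellular nucleotides such as ATP and are linked to fat absorption. The mouse has several genes of the intestinal type in a row on chromosome 1: Akp3, whose product is found mainly in the duodenum, Alpi, which is active along the intestine, and Alppl2, the embryonic form. Alpl, on another chromosome, codes for the tissue-nonspecific enzyme of bone, liver and kidney.

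The sequences just before the start of the 3 chromosome 1 genes are shown because these genes are close relatives whose values differed in the knockout. They come from RefSeq (build GRCm38.p6), 140 bases each, read toward the gene, and capitals mark the exact runs of at least 10 bases that all 3 windows share.
Akp3, chr1:87124814-87124953, plus strand: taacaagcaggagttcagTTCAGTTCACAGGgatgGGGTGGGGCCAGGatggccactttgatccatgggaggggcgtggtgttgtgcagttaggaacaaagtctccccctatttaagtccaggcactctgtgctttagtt
Alppl2, chr1:87089929-87090068, minus strand: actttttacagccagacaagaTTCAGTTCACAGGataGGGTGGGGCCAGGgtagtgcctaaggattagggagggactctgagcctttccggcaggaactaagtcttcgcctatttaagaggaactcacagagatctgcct
Alpi, chr1:87101607-87101746, minus strand: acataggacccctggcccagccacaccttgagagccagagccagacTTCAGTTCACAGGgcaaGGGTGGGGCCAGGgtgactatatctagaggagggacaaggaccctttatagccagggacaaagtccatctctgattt
Both shared runs are 13 bases long, and the first starts 122, 119 and 94 bases before the start of Akp3, Alppl2 and Alpi. What binds there was not measured.

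Levels are given as log2 intensity relative to the 75th percentile of the array, so that 0 is that percentile, and differences are knockout minus wild type on this log2 scale with the standard error (SE) of the limma fit. Values are listed in the order of the replicate numbers. After dim probes were left out, 26107 features were tested, 15583 of them named genes. A feature counts as called when its p, adjusted by Benjamini-Hochberg across the whole set, is under 0.05, and limma called 2 (0.00766%), both lower in the knockout. Before adjustment 1006 features (3.85%) had a p under 0.05, of which 560 (2.15%) had the higher mean in the knockout and 446 (1.71%) the lower. The 3 knockout arrays lay wholly above the 3 wild-type arrays for 2219 features (8.5%) and wholly below for 1533 (5.87%), 14.4% in all. The median difference over all features was 0.03, with 54.6% above 0. Without the third wild-type array 18 features were called, all lower.

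Some arrays stood apart in genes of neighbouring tissue. Markers of stomach and Brunner's glands (13 of 17 measured) averaged 2.68, 2.62 and 3.00 on the wild-type arrays and 2.59, -1.64 and -2.42 on the knockout arrays, so that only 2 of the knockout arrays were low. Pancreas markers (25 of 26 measured) averaged 1.23 on wild-type array 1, with the rest between 6.06 and 8.46. B-cell markers (13 of 16) averaged 1.07 and 0.54 on wild-type arrays 1 and 2, while the remaining 4 lay between -1.53 and -1.18. The arrays lay on 2 slides, wild type 1 and 2 with knockout 1 on one, and wild type 3 with knockout 2 and 3 on the other, so each slide holds both genotypes. Markers of the duodenum were present on all 6 arrays: sucrase-isomaltase (Sis) lay between 8.24 and 8.90, lactase (Lct) between 5.34 and 6.69, the incretin gene Gip between 2.54 and 3.16 and the intestinal transcription factor gene Cdx2 between 2.47 and 3.28. In whole duodenum, fewer cells of a type and less RNA per cell cannot be told apart.

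**Figure D1:**
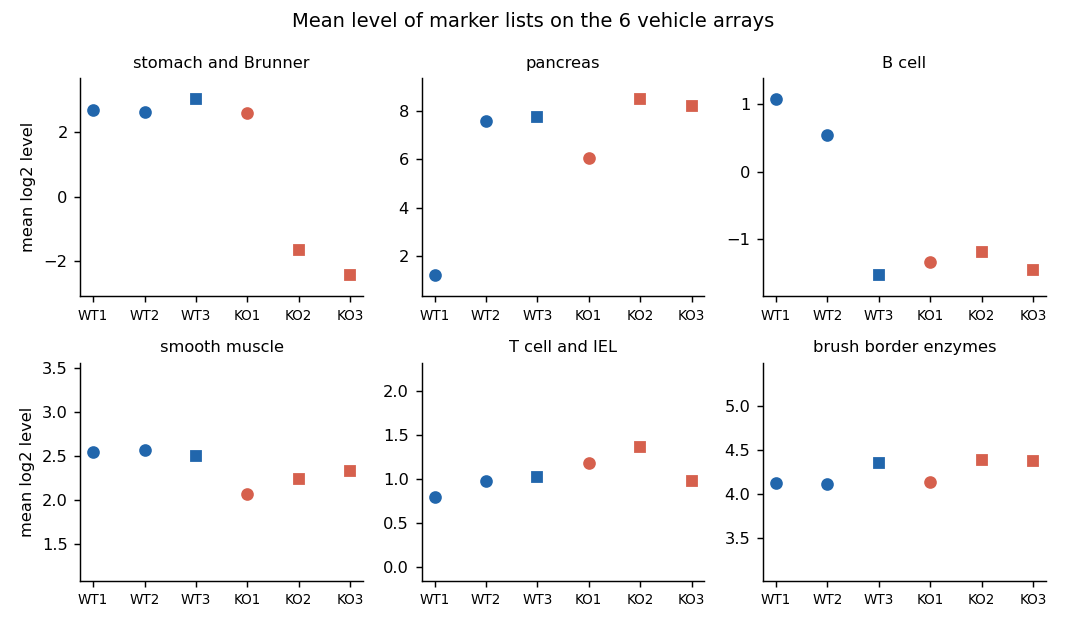
Mean log2 level of the genes of 6 marker lists on each vehicle array (WT wild type, KO knockout, IEL intraepithelial lymphocyte; circles and squares mark the 2 slides). Stomach and Brunner's gland markers are low on knockout arrays 2 and 3, pancreas markers on wild-type array 1, and B-cell markers are high on wild-type arrays 1 and 2 only.

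Akp3 RNA fell by 6.01 (SE 0.37, limma adjusted p = 4.82e-05). Its level was 2.27, 2.04 and 1.70 in wild type and -4.01, -3.80 and -4.23 in knockout. The groups were far apart and each was tight. With normexp background correction, which lifts dim signals, the difference was -3.88 and still called by limma. The probe was still well above background on 2 of the 3 knockout arrays, and whether it lies inside the altered part is unknown here. Another probe for Akp3 read 2.11, 2.05 and 1.20 against -5.21, -6.76 and -6.32 and failed to stand well above background in every knockout sample. Its difference was at least 93.8-fold, a bound computed from the lowest signal that counted as well above background on each dim array.

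Alppl2, the embryonic-type gene near Akp3, was also lower on every knockout array. It measured 0.78, 0.56 and 0.72 in wild type and -1.76, -1.25 and -1.47 in knockout. The difference of -2.18 (SE 0.45) was not called over all 12 arrays (limma adjusted p = 0.665). It was called when the fit used only the 6 vehicle arrays (limma adjusted p = 0.0181). In the mice given IIAEK the genotype difference was -2.08. Alpi, the other intestinal form, read 6.60, 6.72 and 7.16 against 6.54, 6.59 and 6.58 (difference -0.26, SE 0.26), with all knockout arrays just below the lowest wild-type array. Alpl read -3.21, -3.28 and -2.83 against -2.94, -2.48 and -3.42 (0.16, SE 0.25), with overlapping groups. Its sign turned to -0.12 within the second slide.

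The other called feature was an expressed sequence tag with no gene name. It read 1.0, 0.95 and 0.44 in wild type and -6.55, -6.80 and -6.32 in knockout. All 3 knockout arrays were not well above background, and the tag was at least 47.2-fold lower (fitted difference -7.35, SE 0.30, limma adjusted p = 1.14e-06). In the mice given IIAEK it differed by -6.69. Where the tag maps was not analysed here.

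Ecel1, which codes for a membrane metalloprotease known from neurons and is a neighbour of Akp3 in the RefSeq gene table, gave 2 different readings. It was looked at after its value had been seen in the mean of its probes. The probe that stood for the gene read -1.91, -2.20 and -1.77 in wild type and -2.05, -2.28 and -2.13 in knockout, a difference of -0.19 (SE 0.17). The second probe, matched to another Ecel1 transcript, read -0.09, -0.00 and 0.29 against -7.13, -6.76 and -6.54. All 3 knockout readings were not well above background, a difference of at least 28.4-fold. When each of the 32925 probes past the filter was tested as a row of its own, limma called 4: both Akp3 probes, the sequence tag and this Ecel1 probe (-6.87, SE 0.28, adjusted p = 6.64e-07). Under IIAEK that probe differed by -6.70. Which RNA it detects was not tested.

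**Figure D2:**
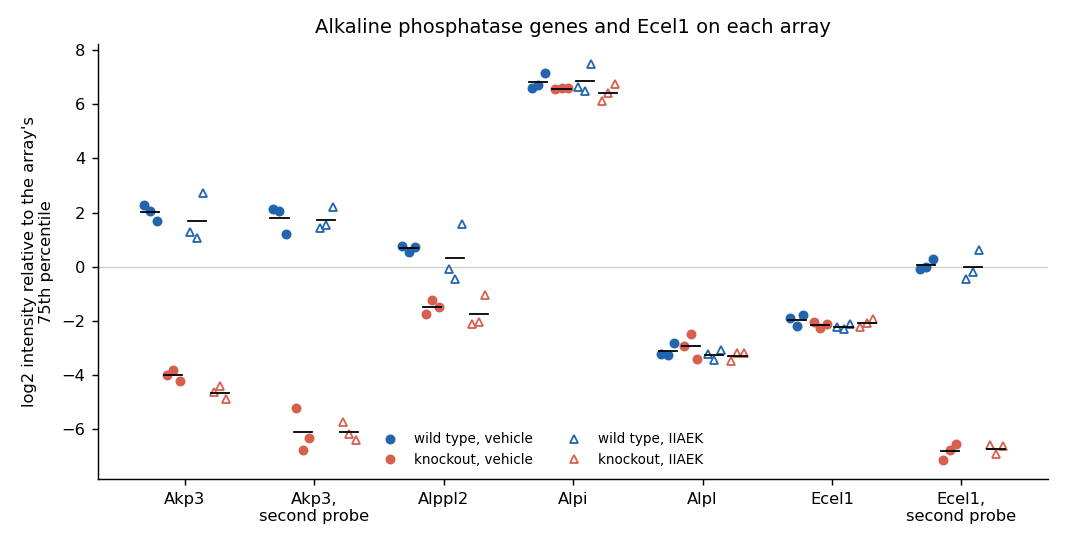
Log2 intensity relative to the array's 75th percentile for the alkaline phosphatase genes and Ecel1 on all 12 arrays (blue wild type, red knockout; filled circles vehicle, open triangles IIAEK; bars are means of 3 arrays). Both Akp3 probes, Alppl2 and the second Ecel1 probe separate the genotypes under both treatments, while Alpl and the first Ecel1 probe overlap and Alpi differs by only -0.26 under vehicle.

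Genes close to one another on a chromosome tend to be inherited together, and those around Akp3 were described as a group. Of 122 features within 10 Mb of Akp3 by the RefSeq gene table, 14 had an unadjusted p under 0.05 (11.5%, against 3.85% of all features), 12 of them lower. On the rest of chromosome 1 the share was 5.99% of 768 features, and on other chromosomes 3.41% of 14690 named genes. Without Akp3 and Alppl2 the share near Akp3 was 10% of 120. The groups did not overlap for 20.8% of these 120 features, and for 20.8% on the rest of chromosome 1. On other chromosomes they did not overlap for 15.4% of named genes, against 14.4% of all features.

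Among these neighbours, Ngef, which codes for a guanine nucleotide exchange factor, read 2.52, 2.47 and 2.46 in wild type and 2.02, 1.73 and 1.92 in knockout. That is a difference of -0.59 (SE 0.12), with a very similar -0.62 under IIAEK. Utp14b, a retrogene for a ribosome-assembly factor, read -2.16, -2.28 and -2.48 against -3.17, -3.53 and -3.45 (difference -1.07, SE 0.20; under IIAEK -1.13). Neither pair of groups overlapped. Mogat1, which codes for a monoacylglycerol acyltransferase, a step of triglyceride synthesis, was one of the 2 genes on the higher side. It read -1.94, -2.14 and -1.49 in wild type and 0.53, 1.37 and 0.38 in knockout, a difference of 2.62 (SE 0.56). Its second probe was dim on all 3 wild-type arrays and at least 2.64-fold higher in knockout. Under IIAEK its difference was 1.16, and the third wild-type mouse there, at 0.47, lay among the knockouts.

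Of the rest, Glrp1 (-2.0), dim on all 3 knockout arrays, was at least 1.11-fold lower. Hjurp, whose product loads the centromeric histone, differed by -1.70 and the endocytosis gene Sh3bp4 by -1.02. Hjurp was well above background on only 1 knockout array, so its difference rests in part on background readings. The clock gene Per2 differed by -0.98, the glyoxylate-clearing aminotransferase gene Agxt by -0.92 and A630001G21Rik by -0.87 (-0.39 on its other probe), with Per2 and A630001G21Rik overlapping between groups. Without the third wild-type array Per2 differed by -0.37. The differences were -0.65 for 2810459M11Rik, -0.51 for the serine protease inhibitor gene Serpine2 and 0.89 for the glycosyltransferase gene B3gnt7. None of these neighbours except Akp3 was called. The sign of A630001G21Rik turned to 0.02 within the second slide.

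The vehicle and IIAEK contrasts come from different mice. Across the 120 features near Akp3, again without Akp3 and Alppl2, the 2 contrasts correlated with a Pearson r of 0.549 (Spearman 0.399), against 0.326 (Spearman 0.21) for the rest of chromosome 1 and 0.160 (Spearman 0.098) for named genes elsewhere. These are correlations across genes, which are not independent of each other, and are given as a description. An unnamed non-coding probe of chr1:74084292-74138492 (build mm9, per the file) was measured in each wild-type sample but dim in all 3 knockouts, and was at least 1.47-fold lower (limma adjusted p = 0.242, and 0.0434, a call, with the authors' value table).

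**Figure D3:**
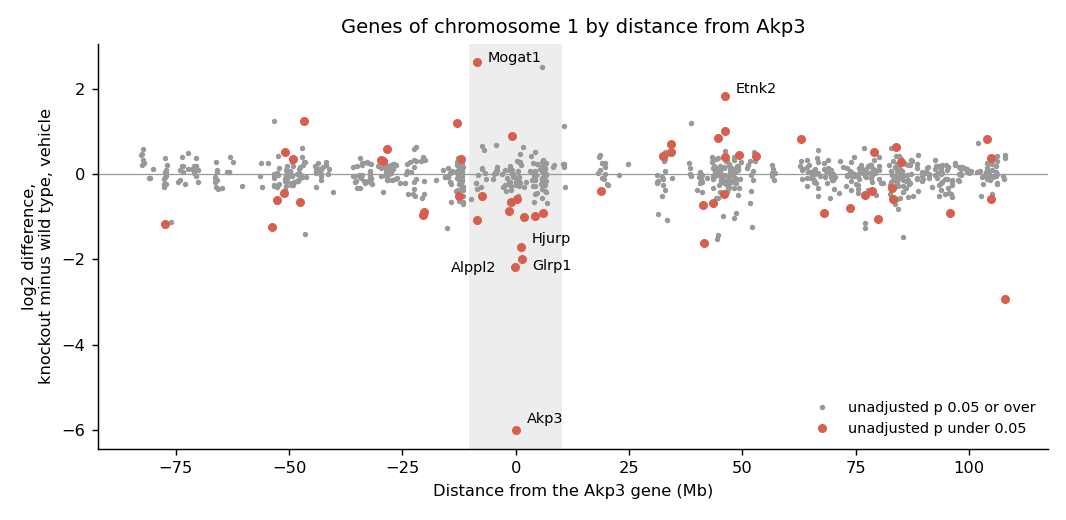
Log2 difference, knockout minus wild type under vehicle, of each measured gene of chromosome 1 against its distance from Akp3 in Mb (red: unadjusted p under 0.05; grey band: within 10 Mb). Akp3 at -6.01 lies far below all other plotted genes. Within the band Alppl2, Glrp1 and Hjurp are low and Mogat1 is high. Each gene is shown by the probe that stood for it, so the second Ecel1 probe (-6.87) is not plotted.

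Beyond that region no named gene was called over all 12 arrays, and the genes described are mainly those with the smallest p or the largest difference among genes whose groups did not overlap. Rgp1, which codes for a partner in the exchange factor of the Golgi GTPase Rab6, read 4.54, 4.63 and 4.43 in wild type and 2.32, 2.45 and 2.28 in knockout. The difference was -2.18 (SE 0.36, limma adjusted p = 0.382) and -2.28 under IIAEK. With only the 6 vehicle arrays it was called (limma adjusted p = 0.00132). Its second probe differed by 0.10, so the 2 probes of Rgp1 disagreed.

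Ren2 and Ren1 code for renin, the protease that starts the renin-angiotensin cascade, and mouse strains are known to differ in whether they carry the duplicate gene Ren2. Ren2 read -3.17, -3.14 and -2.73 in wild type and -0.40, 0.01 and -0.70 in knockout, a difference of 2.65 (SE 0.50), with 1.74 under IIAEK. It was the only feature called higher with the 6 vehicle arrays alone (limma adjusted p = 0.0383). Ren1 was dim on all 3 wild-type arrays and at least 1.79-fold higher, with overlapping groups, and since the 2 genes are near-identical copies their probes may share signal. Etnk2, an ethanolamine kinase gene, lies beside Ren1 on chromosome 1, more than 10 Mb from Akp3. It read -4.81, -4.23 and -3.90 against -2.43, -2.61 and -2.43. That is a difference of 1.82 (SE 0.40), and 1.25 under IIAEK. The renin-angiotensin list, 9 genes with both renin genes included, had a median of 0.09.

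Bcl6, a transcriptional repressor gene best known from germinal centre B cells, differed by -1.10 (SE 0.20): 2.52, 2.46 and 1.76 in wild type, 1.14, 1.12 and 1.18 in knockout. The first and second wild-type arrays, which were also high in B-cell markers, were the highest. Within the second slide the Bcl6 difference was -0.61, and without the third wild-type array it was -1.34 and called (limma adjusted p = 0.0214). The part of B cells in this was not tested. Banp, which codes for a chromatin-binding protein, read 0.81, 1.19 and 0.83 against -0.59, -0.36 and -0.85 (difference -1.55, SE 0.26), with -0.63 under IIAEK. The corepressor gene Tle1 differed by -0.91 on the probe that stood for it, by -0.95 on another and by -0.01 on one more, so its probes disagreed. The lymphocyte egress receptor gene S1pr1 differed by -1.04 and Gm38444 by -1.17.

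On the higher side, the groups did not overlap for the barrier gene Cldn23, a claudin, at -0.09, -0.14 and 0.20 against 0.60, 1.25 and 0.83 (difference 0.90, SE 0.19). The zinc finger gene Zfp941 differed by 0.87, Sval1 by 1.25 and the long non-coding RNAs Kcnmb4os2 and Mir22hg by 1.0 and 0.80. The tuftelin gene Tuft1 differed by 0.61 and Vps37d, a subunit of the endosomal sorting complex ESCRT-I, by 0.63. Clec1a and Clec14a, C-type lectin genes, differed by 1.84 and 1.47, with Clec1a not well above background on any wild-type array (at least 1.88-fold higher). Clec14a was well above background on 2 of the 3 wild-type arrays, and differed by 0.91 without the third. Under IIAEK the difference of Clec1a was -0.86.

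Some of the largest differences came from genes that were far lower on knockout arrays 2 and 3 than on knockout array 1. The stomach gene Gkn2 read 7.39, 7.02 and 7.18 in wild type and 7.36, -5.38 and -5.20 in knockout, so its difference of -8.27 became 0.15 within the first slide. Mup18, one of the major urinary protein genes, which code for pheromone carriers made mainly in liver, read 1.59, 0.84 and 1.20 against -1.05, -7.09 and -6.58 (-6.12, SE 2.49). Mup1, Mup17, Mup19, Mup4 and Mup5 likewise were intermediate on knockout array 1 and low on the other knockout arrays, with differences from -5.82 to -3.32. Under IIAEK the differences of these 5 genes lay between -1.10 (Mup1) and -0.09 (Mup4). These genes are near-identical copies, so which of them the probes read is uncertain. Gkn2, Mup18, Mup1, Mup17 and Mup5 were well above background on only 1 knockout array, so their differences rest in part on background readings.

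Genes induced by glucocorticoids, the adrenal stress hormones that act through a nuclear receptor, were mostly lower in the knockout. Of 18 measured, 15 were below 0 (45.4% of all features were), 9 were wholly lower (5.87% of all features) and 5 were lower at an unadjusted p under 0.05 (1.71%). The median was -0.36, and -0.60 without the second knockout array. Tsc22d3, the glucocorticoid-induced leucine zipper gene, read 4.59, 4.31 and 4.25 in wild type and 3.02, 3.31 and 3.48 in knockout. All knockout arrays lay below all wild-type arrays (difference -1.11, SE 0.21), and its second probe gave -0.81. The mTOR inhibitor gene Ddit4 read 4.15, 4.10 and 3.92 against 2.21, 3.15 and 2.49 (-1.44, SE 0.35). The kinase gene Sgk1 read 5.30, 5.41 and 5.07 against 4.36, 3.21 and 3.22 (-1.67, SE 0.53).

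The lipase inhibitor gene Angptl4 differed by -1.03 (SE 0.46) and the clock gene Per1, also a direct target, by -0.84 (SE 0.31). Fkbp5, a chaperone gene often used as a marker of receptor activity, read 3.73, 3.79 and 4.26 against 3.66, 3.67 and 3.48 (-0.32, SE 0.29). Another Fkbp5 probe read 1.46, 1.26 and 1.0 against -0.17, -0.41 and -0.79, a difference of -1.70, so the 2 probes disagreed in size, while the groups did not overlap on either. Members above 0 were among them the metallothionein genes Mt1 (0.36) and Mt2 (0.59), which respond to metals as well. Under IIAEK the list's median was -0.03, with -0.15 for Tsc22d3, 0.03 for Ddit4 and 0.67 and 0.20 for the 2 Fkbp5 probes. The difference between both genotype contrasts had an unadjusted p under 0.05 for 3 of the 18, against 1.52% of all features, and no feature passed the adjustment in that comparison.

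Heat shock chaperones refold damaged proteins and are switched on by heat shock factor. Of 20 measured, 17 were below 0 (45.4% of all features), 9 were wholly lower (5.87% of all features) and 5 were lower at an unadjusted p under 0.05 (1.71%). The median was -0.23, and -0.36 with the stomach and pancreas marker means as covariates. Hspa1b, an inducible Hsp70 gene, read -1.06, 0.67 and 1.74 in wild type and -1.92, -1.72 and -1.82 in knockout. The knockout arrays were alike and the wild-type arrays spread widely (difference -2.27, SE 0.57). Its near-identical twin Hspa1a read -0.99, 0.51 and 1.70 against -1.48, -1.13 and -1.38 (-1.74, SE 0.55). Hsph1, an Hsp110 gene, had the same order of wild-type arrays, at 2.52, 3.19 and 3.72, against 2.10, 2.16 and 2.39 (-0.93, SE 0.28). The co-chaperone genes Bag3 and Dnajb1 differed by -0.51 and -0.37. Under IIAEK the median was 0.06. Without the third wild-type array 14 of the 20 were below 0 and 4 had an unadjusted p under 0.05, all lower, and within the first slide 1 did.

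**Figure D4:**
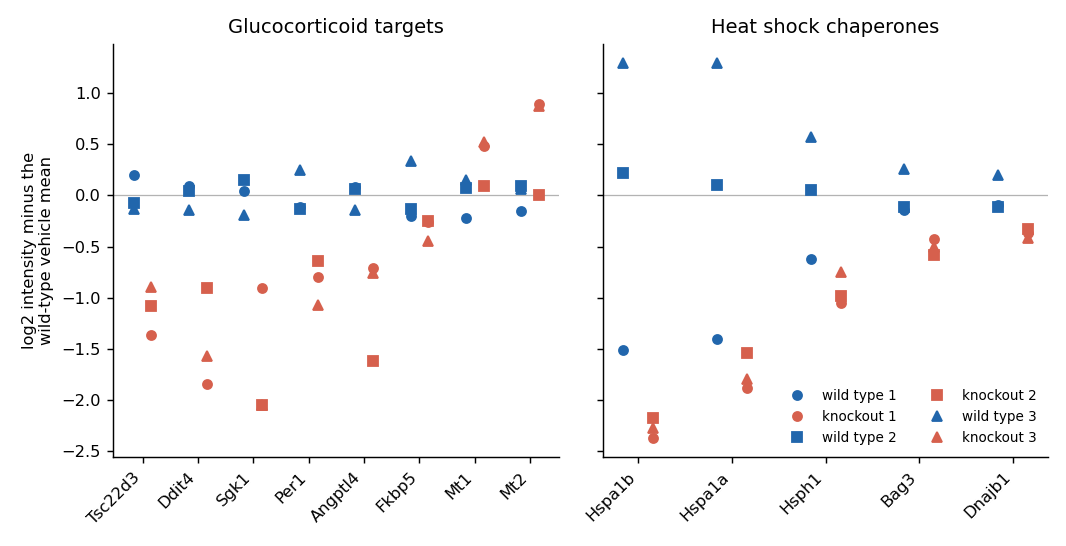
Log2 intensity minus the wild-type vehicle mean for glucocorticoid targets (left) and heat shock chaperones (right) on the 3 wild-type (blue) and 3 knockout (red) vehicle arrays, with a marker shape for each replicate number. Knockout points lie below all wild-type points for Tsc22d3, Ddit4, Sgk1, Per1, Angptl4, Fkbp5 (its first probe) and the 5 chaperone genes, while Mt1 and Mt2 have their highest points in the knockout.

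The windows before Hspa1b and Hspa1a are shown because both held a match to the heat shock element. The 2 runs of 140 bases (RefSeq, GRCm38.p6) are identical at 139 positions, and capitals mark the motif GAANNTTC, which reads the same on both strands.
Hspa1b, chr17:34959239-34959378, minus strand: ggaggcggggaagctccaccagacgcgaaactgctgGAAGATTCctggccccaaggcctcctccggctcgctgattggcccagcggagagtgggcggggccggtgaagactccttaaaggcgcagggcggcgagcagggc
Hspa1a, chr17:34972157-34972296, minus strand: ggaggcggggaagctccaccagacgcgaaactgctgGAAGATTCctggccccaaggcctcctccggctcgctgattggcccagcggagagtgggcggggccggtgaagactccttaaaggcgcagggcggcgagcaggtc
The motif starts 104 bases before the start of Hspa1b. Of 16 list genes with a promoter in the RefSeq table (250 bases before to 50 after a start), 11 held it, against 7.86% of the 32851 promoters and 9.04% of the 27025 genes. For the palindromic glucocorticoid response element, these windows held a match for Mt1 and Sgk1, 2 of 15 list genes. Of all genes 0.537% held one, and of promoters 0.475%. The core of the interferon-stimulated response element was present for 19 of 34 interferon response genes, against 3.99% of all genes and 3.44% of promoters. Matches are letters in a window, and binding was not measured.

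Interferon response genes, which cells switch on against viruses and bacteria, lay above 0 for 41 of 45 measured, where 54.6% of all features did. For 14 the knockout arrays were wholly above the wild type (8.5% of all features) and 4 had an unadjusted p under 0.05 (2.15%). The shift was small, with a median of 0.25, and 0.12 under IIAEK. Cxcl9, a chemokine gene induced by interferon gamma, read -0.67, -0.69 and -0.96 in wild type and 0.16, 0.02 and -0.10 in knockout (difference 0.80, SE 0.27). The GTPase gene Gbp6 differed by 0.64, Ifi44 by 0.55 and the antiviral gene Ifit2 by 0.51. With the mean levels of stomach and pancreas markers as covariates, 30 of the 45 lay above 0, 0 had an unadjusted p under 0.05, and the median was 0.11.

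Eosinophil and type 2 response genes were all above 0 in this contrast, 15 of 15 measured, with 6 not overlapping (8.5% of all features were wholly higher) and 5 at an unadjusted p under 0.05 (2.15% of all features). The median was 0.61, and 0.32 with normexp background correction. Prg2, the major basic protein of eosinophil granules, read 0.06, 0.45 and 0.24 in wild type and 0.83, 1.20 and 1.31 in knockout (difference 0.87, SE 0.20). Alox15, the lipoxygenase gene of eosinophils and macrophages, read -5.55, -5.63 and -6.35 against -4.38, -4.35 and -4.00. It was not well above background on any wild-type array, so it was at least 1.46-fold higher (fitted difference 1.60). Chil4 and Chil3, chitinase-like genes of the type 2 response, had larger differences.

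Chil4 read -3.99, -6.73 and -5.02 in wild type and 0.25, -3.21 and -0.26 in knockout (4.18, SE 1.27), and Chil3 read -2.37, -3.23 and -2.66 against 1.23, -0.99 and 0.29 (2.93, SE 1.05). Chil4 was well above background on 1 of the 3 wild-type arrays, so its difference rests in part on background readings, and with normexp it was 1.55. The spread within groups was wide and neither was called. Retnlb, a goblet cell gene of worm and bacterial defence, differed by 1.71 with overlapping groups. Under IIAEK the median of the list was -0.09, Chil4 differed by -0.85 and Chil3 by -0.75. With the stomach and pancreas marker means as covariates, 12 of 15 were above 0 with a median of 0.37.

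T-cell and intraepithelial lymphocyte markers were above 0 for 22 of 25 (54.6% of all features were). Of these, 3 were wholly higher (8.5% of all features) and 2 were higher at an unadjusted p under 0.05 (2.15%). The median was 0.30, and 0.25 under IIAEK. Itgae, the integrin that holds lymphocytes in the epithelium, differed by 0.52 and Cd6 by 0.58, each with overlap. The median was 0.02 within the second slide, 0.10 with the stomach and pancreas covariates, 0.17 without the first wild-type array and 0.18 without the second knockout array. Macrophage and dendritic cell markers lay above 0 for 19 of 21 with a median of 0.23, and the integrin gene Itgam (0.45) was the 1 gene with an unadjusted p under 0.05. That median was -0.07 within the first slide, 0.09 with the covariates and 0.12 without the second knockout array. Plasma cell markers were above 0 for 7 of 8, and the antibody joining chain gene Jchain read 7.88, 8.11 and 7.71 against 8.39, 8.28 and 8.72.

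B-cell markers went the other way, with 13 of 13 below 0 (45.4% of all features were). Of these, 7 were lower at an unadjusted p under 0.05 (1.71% of all features) and 1 was wholly lower (5.87%). The difference was carried by wild-type arrays 1 and 2. Ms4a1, the gene for CD20, read 2.92, 1.84 and -4.50 in wild type and -4.36, -3.27 and -4.05 in knockout, so the third wild-type mouse was at the knockout level. Cr2, complement receptor 2, differed by -2.94 and the transcription factor gene Spib by -1.36, with overlap in both. The list's median was -0.94, -0.59 without the first wild-type array, -1.61 without the third, 0.25 within the second slide and 0.04 under IIAEK. Of the 18 features called without that array, Cr2 (-4.62), Cd79b (-1.96) and the follicle chemokine gene Cxcl13 (-2.30) are B-cell or follicle genes, named after their values were seen. The share of lymphoid follicle in each sample was not measured.

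Genes of endotoxin sensing and of inflammation more widely, chosen because the enzyme dephosphorylates endotoxin, showed no common direction. Of 25 measured, 14 lay above 0 with a median of 0.06, and 1 had an unadjusted p under 0.05. That was Tlr5, the flagellin receptor gene, at -2.91, -3.07 and -2.90 in wild type and -3.27, -4.14 and -4.22 in knockout (-0.92, SE 0.31). Tlr4, the endotoxin receptor gene, differed by -0.59 (SE 0.39) and the cytokine gene Il1b by 0.62 (SE 0.29). Epithelial antimicrobial genes lay above 0 for 11 of 13 (54.6% of all features did) with a median of 0.54. The antibacterial lectin gene Reg3g, at 6.42, 5.23 and 5.85 against 5.68, 8.97 and 6.88, was highest on knockout 2, with overlap. Within the first slide the list's median was -0.14 and Reg3g differed by -0.14. Without the second knockout array the median was 0.15.

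Extracellular nucleotides are another substrate of the enzyme. Of 21 genes for their breakdown, uptake and receptors, 17 were above 0 (54.6% of all features were), with a median of 0.09. Ada, adenosine deaminase, read 6.86, 7.08 and 6.01 in wild type and 7.09, 7.72 and 7.42 in knockout (0.76, SE 0.32), narrowly without overlap. Another Ada probe differed by 0.56, with overlapping groups. Enpp2, the gene for the lysophospholipase autotaxin, differed by -0.56 (SE 0.23). These 2 were the genes of the list with an unadjusted p under 0.05 (3.85% of all features). Under IIAEK they differed by -0.27 and -0.06.

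Absorption genes differed little. Of the genes for fat absorption and chylomicron assembly 16 of 18 were above 0 (54.6% of all features were) with a median of 0.17. In this list 0 had an unadjusted p under 0.05 by limma. Within the second slide 6 of the 18 were above 0 and the median was -0.11. Cholesterol synthesis genes had 10 of 22 above 0 and a median of -0.02, and sterol uptake and efflux genes 4 of 10 and -0.06, again with 0 at that threshold. Brush border enzyme genes had 17 of 25 above 0 and a median of 0.15, which was -0.03 within the second slide. Amino acid carriers stood out singly. Slc7a9 read 3.71, 3.77 and 3.96 against 4.12, 4.47 and 4.28 (0.48, SE 0.17), and Slc6a19, for neutral amino acids, differed by 0.56 (SE 0.25), while the peptide carrier gene Slc15a1 differed by -0.50 (SE 0.59).

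Mitochondrial and detoxifying genes showed shifts whose size changed between settings, and why was not tested. Nuclear genes of oxidative phosphorylation were above 0 for 47 of 48, where 54.6% of all features were. For 16 the knockout arrays were wholly higher (8.5% of all features), but the median was 0.16, with 0 at an unadjusted p under 0.05. The median was 0.06 after quantile normalization and -0.00 with the stomach and pancreas marker means as covariates. Under IIAEK it was 0.002, with 24 of 48 above 0. Of 33 drug metabolism and NRF2 genes, 26 were above 0 and 11 wholly higher (8.5% of all features), with a median of 0.32. That median was -0.02 with those covariates and -0.24 under IIAEK. The carboxylesterase gene Ces2c differed by 0.55 (SE 0.22) and the cytochrome gene Cyp3a11 by 0.67 (SE 0.53).

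Among genes of fatty acid oxidation, 17 of 19 lay above 0 (54.6% of all features did) with a median of 0.20. Under IIAEK the median was -0.0007, with 9 of 19 above 0. Under vehicle 2 genes had an unadjusted p under 0.05 (3.85% of all features). The carnitine carrier gene Slc25a20 differed by 0.52 (SE 0.16), and Ppara, the gene for the regulator itself, by -0.52 (SE 0.21). Within the second slide 6 of the 19 lay above 0 with a median of -0.23. Tight junction genes had 14 of 19 above 0 with a median of 0.08, and besides Cldn23 the occludin gene Ocln read 0.32, 0.30 and 0.33 in wild type and 0.84, 0.87 and 0.66 in knockout (0.47, SE 0.16). The knockout arrays were all higher.

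Clock genes had 11 of 15 below 0 (median -0.19), against 45.4% of all features, with Hlf at -1.25, Per2 at -0.98 and Per1 at -0.84. Hlf read -1.56, -1.56 and -0.22 against -2.42, -2.34 and -2.34, and Per2 0.26, 0.52 and 2.22 against -0.42, 0.63 and -0.16. The third wild-type array was the highest in both. Without it Per2 differed by -0.37 and Hlf by -0.81, and the list's median was -0.05. The hour of tissue collection is unknown here.

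**Figure D5:**
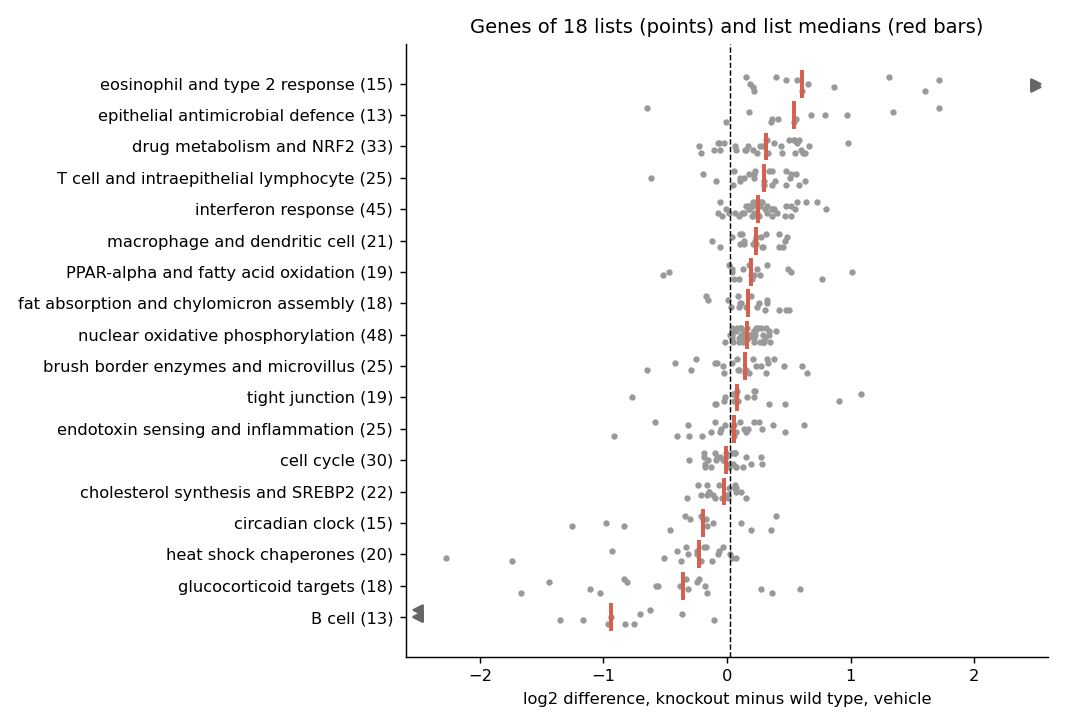
Log2 difference, knockout minus wild type under vehicle, of each measured gene (grey points) in 18 lists, with the number measured in brackets, the list median (red bar) and the median of all features (dashed line, 0.03). Arrowheads mark genes beyond the axis: Chil3 and Chil4 on the right, and B-cell markers, Cr2 and Ms4a1 among them, on the left. Medians run from -0.94 for B-cell markers to 0.61 for eosinophil and type 2 response genes.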

How the data were processed

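Single-colour Agilent arrays were read per the deposited scanner files, whose processed signal is a background-corrected intensity made by the authors with Feature Extraction 10.7.3.1 (build mm9, per the file headers). Control spots were left out, spots of a probe were averaged, log2 of that deposited intensity was taken and each array's 75th percentile subtracted. The 75th percentile of intensity was 195 to 465 on the vehicle arrays, and 55.9% to 64.0% of probes were well above background. Probes well above background on all 3 arrays of any group were kept, and the probe with the highest mean level stood for a gene. limma (version 3.58.1, R 4.3.3, with tables made in Python 3.11.15 and pandas 2.3.3) fitted the 4 groups of all 12 arrays together, with trend and Benjamini-Hochberg adjustment, and the fit was checked on simulated data. Spearman and Pearson values are descriptions. Genes were named as phosphatases, called features, those with smallest p or largest difference without overlap, leading list members, and genes within 10 Mb of Akp3. Members and lists were chosen with earlier results of these data known. Deviations of wild-type and knockout arrays with the same replicate number correlated at r = 0.539, 0.121 and 0.178. Wild type 3 and knockout 2, of different numbers, correlated at 0.409, above 0.121 and 0.178. The labels do not say that the numbers mark pairs, so a pairing is not established. A marker gene that was measured is not reported here.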

Additional observations from a re-analysis of the deposited data

How the results depend on the processing

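Akp3 and the sequence tag were called in every setting run except one. Requiring probes to be well above background on all 6 vehicle arrays removes both by construction, and limma then called 0 of 24094 features (830 at an unadjusted p under 0.05). The count of calls was 6 with only the 6 vehicle arrays, 4 within the first slide, 80 within the second slide, which holds 1 wild-type and 2 knockout arrays, and 4 with every probe as a row of its own, a setting chosen after seeing the data. Leaving out 1 array at a time gave 2 to 18 calls, the 18 without the third wild-type array, and Akp3 differences from -6.16 to -5.88. Replicate numbers entered as a block left 2 calls, with Akp3 at -6.01, and changed no other call. Some signs turned for named genes. Within the first slide these were Tlr4 (0.0529), Reg3g (-0.14), Gkn2 (0.15) and Ecel1 (0.00608, its first probe). Within the second slide they were Alpl (-0.12), Cr2 (0.45), Ms4a1 (0.84), A630001G21Rik (0.0244) and Sis (-0.0184). Alpl ranged from -0.0754 without the second knockout array to 0.390 without the third, and Sis was -0.16 with stomach and pancreas marker means as covariates. The cause of these turns was not tested. Over all settings, 787 recomputed list medians moved by less than the spread between replicates and 93 by more. That spread is wide for some lists, so a small move against it does not mean a stable sign. The pancreas list means had a within-group SD of 2.775. Its median went from 2.06 to -0.08 without the first wild-type array. With 3 arrays a group, p-values measure only the spread between these mice, and probes near background have only bounds.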

Other observations

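Of 18 enteroendocrine genes, 15 lay below 0 (45.4% of all features did) with a median of -0.19, and within the first slide 10 did with a median of -0.05. Cell cycle genes had 14 of 30 above 0 and a median of -0.01. Unfolded protein response genes had 8 of 16 above 0 and a median of 0.02. Goblet cell genes had 7 of 12 above 0 and a median of 0.12. The membrane mucin gene Muc13 read 8.49, 8.46 and 8.40 in wild type and 8.60, 9.38 and 9.51 in knockout, with no overlap. The duodenal transcription factor gene Pdx1 read 0.04, -0.00 and -0.03 against 0.81, 0.50 and 0.42 (difference 0.57), also with no overlap, and it was not called.

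Smooth muscle markers lay below 0 for 12 of 12 (45.4% of all features did). Their list means were 2.55, 2.57 and 2.5 in wild type and 2.06, 2.24 and 2.32 in knockout. With stomach and pancreas marker means as covariates their median moved from -0.29 to -0.00.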
